A study of Mus musculus with 6 samples.

Results

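Adipocyte identity genes and adipokines were followed across aortae of mice in which smooth muscle cells had lost Srf, the gene of serum response factor, a transcription factor that drives contractile genes. The 10 genes were taken by name: Adipoq, Lep, Retn and Cfd, which encode proteins that fat cells secrete; Pparg, Cebpa, Cebpb and Nrip1, which encode transcriptional regulators; and Fabp4 and Car3, which encode abundant cytosolic proteins of fat cells. The deposited table holds 55453 genes, 18192 of them had enough counts to be tested, and all 10 were among these.

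The KO libraries came from aortae of mice homozygous for a floxed Srf allele and the Ctrl libraries from mice heterozygous for it. All mice in both groups also carried Itga8-CreERT2, a tamoxifen-inducible Cre recombinase under control of the smooth muscle integrin locus Itga8, and all received 5 daily intraperitoneal doses of 33 mg/kg tamoxifen, with the aorta taken 10 days after the last dose. Ctrl smooth muscle therefore can lose 1 copy of Srf, so Ctrl is not a wild type. Per the labels' protocols, adventitia and endothelium were removed, and each aorta was frozen on its own. The labels list 3 KO and 3 Ctrl samples. KO replicates 2 and 3 and Ctrl replicates 1, 2 and 3 were analysed; KO replicate 1 was not analysed here. The submitters state that 1 KO sample was dropped as an outlier.

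Fat cells are made from mesenchymal precursors by a cascade of transcription factors. Cebpb acts early and helps to switch on Pparg and Cebpa, which sustain each other and turn on the genes of the mature cell. Mature adipocytes store triglyceride and secrete hormones, among them adiponectin and leptin. The aorta of the mouse lies in perivascular fat, which along the thoracic part has features of brown fat.

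Library totals ranged from 27685188 to 31873243 counts in KO and from 26177821 to 34311855 in Ctrl. Levels are in CPM, that is, counts relative to each library's TMM-adjusted total. Fold changes are KO over Ctrl on the log2 scale with their standard error (SE), from edgeR's quasi-likelihood test, with p-values adjusted over all genes tested by the Benjamini-Hochberg method and a threshold of 0.05. Srf stood at 45.0 and 38.6 CPM in KO libraries, against 56.1, 64.4 and 68.3 CPM in Ctrl libraries (log2 fold change -0.59, SE 0.122; edgeR adjusted p = 0.115), and DESeq2 called it lower (adjusted p = 0.00373). Gene-level counts of Srf also take in exons outside a deletion. Ctrl replicate 3 stood apart from the other libraries: principal component 1 (51.6% of the variance) placed it at 56.4, with KO replicates 2 and 3 at -20.5 and -42.9 and Ctrl replicates 1 and 2 at -1.66 and 8.67. edgeR called 0 genes higher and 0 genes lower in KO across the whole table (0% in each direction); its smallest adjusted p was 0.104. Without adjustment, p was under 0.05 for 9.04% of genes on the higher side and 6.75% on the lower side. DESeq2, used as an alternative test, called 3.33% of its 15741 genes higher and 2.61% lower.

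Of the 10 adipocyte genes, 9 had a positive log2 fold change, against 47.2% of all genes tested, and Nrip1 a negative one. In 6 of them (Adipoq, Retn, Fabp4, Pparg, Cebpa and Car3) both KO libraries lay above all 3 Ctrl libraries, as in 17.4% of all genes, and in 1 (Nrip1) both lay below, as in 18.2%, though not under TPM scaling. The same 6 had an unadjusted edgeR p under 0.05. None of the 10 passed edgeR's adjusted threshold, while DESeq2 called 3 of them higher, Retn, Fabp4 and Cebpa. Their median log2 fold change was 0.60, and that of all genes tested was -0.02. Without Ctrl replicate 3, the library that stood apart, the median was 0.55 and edgeR again called 0 of the 10. In that fit 8 of the 10 had an unadjusted edgeR p under 0.05, as did 2904 of all 18028 genes tested. Without KO replicate 3 the median was 0.53. In bulk RNA, more cells of a type and more RNA per cell cannot be told apart. The p-values weigh the difference between the groups against the spread within them among these 5 aortae. edgeR estimates that spread with the help of other genes.

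**Figure D1:**
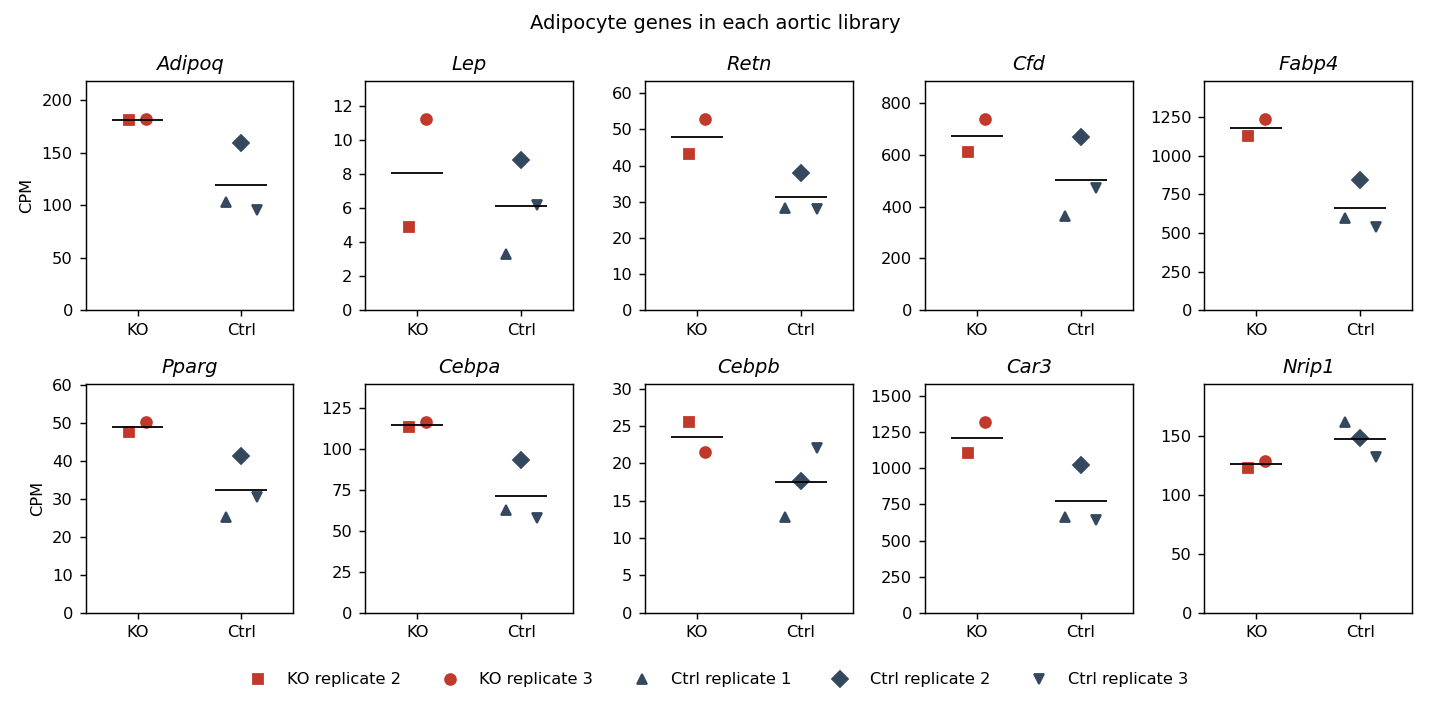
Level of each of the 10 genes (CPM, linear axis from 0) in the 2 KO and 3 Ctrl libraries, with 1 point per library and a line at the group mean. In Adipoq, Retn, Fabp4, Pparg, Cebpa and Car3 both KO points lie above every Ctrl point, in Nrip1 both lie below on this scale but not in TPM, and in Lep, Cfd and Cebpb the groups overlap.

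Among the secreted proteins, Adipoq, which encodes adiponectin, a hormone made almost solely by fat cells, was the most even between the KO aortae. It stood at 181 and 182 CPM in KO libraries, against 103, 159 and 95.8 CPM in Ctrl libraries. The groups did not overlap, and Ctrl replicate 2 came nearest to the KO level. The means were 181 ± 0.641 CPM in KO (SD, n = 2) and 119 ± 34.6 CPM in Ctrl (SD, n = 3). With 2 KO libraries this evenness was not tested, and in TPM, without TMM, they stood at 453 and 473. On the log2 scale KO stood 0.60 above Ctrl (SE 0.211), which did not pass (edgeR adjusted p = 0.244; DESeq2 adjusted p = 0.102). Without Ctrl replicate 2, edgeR called it (log2 fold change 0.88, adjusted p = 0.0466, within a range of 0.00828 to 0.651 over all its alternatives). The gene lies at chr16:23146536-23158028 (GRCm38).

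Retn encodes resistin, which in mice is secreted by adipocytes. It stood at 43.2 and 52.8 CPM in KO libraries, against 28.2, 37.8 and 27.9 CPM in Ctrl libraries. Here too the groups did not overlap and Ctrl replicate 2 was the highest Ctrl library. KO stood 0.62 above Ctrl on the log2 scale (SE 0.162; edgeR adjusted p = 0.156), and DESeq2 called it higher (adjusted p = 0.0299, within a range of 0.0033 to 0.627 over all alternatives).

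Cfd encodes adipsin, the complement factor D that fat cells release in large amounts, and macrophages make it too. It had 612 and 739 CPM in KO libraries, against 363, 669 and 473 CPM in Ctrl libraries. Ctrl replicate 2 lay above KO replicate 2, so the groups overlapped. A log2 fold change of 0.43 (SE 0.242; edgeR adjusted p = 0.450) did not pass. It was 0.24 without Ctrl replicate 1 and 0.71 without Ctrl replicate 2.

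Lep encodes leptin, the satiety hormone of white fat, and was the lowest of the 10. Its counts were 138 and 366 in KO libraries, against 108, 299 and 155 in Ctrl libraries, and at 108 counts the counting error alone is 9.62%. That gave 4.88 and 11.2 CPM in KO libraries, against 3.32, 8.87 and 6.17 CPM in Ctrl libraries. KO replicate 3 was the highest library and KO replicate 2 lay below 2 of the Ctrl libraries. The log2 fold change of 0.40 (SE 0.459; edgeR adjusted p = 0.724) turned to -0.33 without KO replicate 3, was 0.10 without Ctrl replicate 1, 0.87 without KO replicate 2 and 0.79 without Ctrl replicate 2. With a difference this close to its error, a change of Lep was not detectable in either direction.

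Of the regulators, Pparg encodes the nuclear receptor that is needed to form and maintain fat cells. It stood at 47.7 and 50.3 CPM in KO libraries, against 25.3, 41.4 and 30.5 CPM in Ctrl libraries. All KO libraries lay above all Ctrl libraries. KO stood 0.60 above Ctrl on the log2 scale (SE 0.193), without passing (edgeR adjusted p = 0.214; DESeq2 adjusted p = 0.0885).

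Cebpa, the C/EBP factor that sustains Pparg in the mature cell, followed Adipoq closely. It stood at 114 and 117 CPM in KO libraries, against 62.6, 93.2 and 58.2 CPM in Ctrl libraries. The groups did not overlap, and the log2 fold change was 0.69 (SE 0.197; edgeR adjusted p = 0.176). DESeq2 called it higher (adjusted p = 0.0315), as did edgeR without Ctrl replicate 2 (log2 fold change 0.95, adjusted p = 0.0466), within a range of 0.00188 to 0.598 over all alternatives.

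Cebpb, the C/EBP factor of early adipogenesis, is also made by macrophages and many other cells. It had 25.6 and 21.5 CPM in KO libraries, against 12.9, 17.6 and 22.1 CPM in Ctrl libraries. Ctrl replicate 3, among the lowest libraries for Adipoq and Cebpa, was the highest Ctrl library here and lay above KO replicate 3. The log2 fold change was 0.43 (SE 0.216; edgeR adjusted p = 0.400), and it was 0.25 without Ctrl replicate 1 and 0.64 without Ctrl replicate 3. The single exon of Cebpb shares 312 bases with exons of Tmem189 on the opposite strand. Since the strand setting of the counting is not given in the sources used here, reads of both genes may not have been told apart.

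Nrip1 encodes RIP140, a corepressor of nuclear receptors that in fat restrains genes of oxidative metabolism, and it is expressed in many tissues. It had 122 and 129 CPM in KO libraries, against 162, 148 and 132 CPM in Ctrl libraries. Both KO libraries lay below all Ctrl libraries, by a narrow gap to Ctrl replicate 3. This order depends on the scaling: in TPM, without TMM, Nrip1 stood at 37.0 and 40.5 in KO libraries, against 53.5, 47.0 and 38.4 in Ctrl libraries, which overlap. The log2 fold change was -0.23 (SE 0.112; edgeR adjusted p = 0.381), with the same sign under all 15 alternatives, from -0.29 to -0.16.

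Fabp4, the fatty acid carrier of adipocytes, which capillary endothelium and macrophages also make, had the largest log2 fold change of the 10. It stood at 1126 and 1238 CPM in KO libraries, against 598, 843 and 541 CPM in Ctrl libraries. The groups did not overlap, with means of 1182 ± 78.7 CPM in KO (SD, n = 2) and 660 ± 160 CPM in Ctrl (SD, n = 3). The log2 fold change of 0.84 (SE 0.191), or 1.79-fold, did not pass in edgeR (adjusted p = 0.127). DESeq2 called it higher (adjusted p = 0.00224), as did edgeR without Ctrl replicate 2 (log2 fold change 1.07, adjusted p = 0.0466), within a range of 0.00015 to 0.543 over all alternatives.

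Car3 encodes carbonic anhydrase 3, a very abundant cytosolic protein of mouse fat cells and of slow skeletal muscle fibres. It stood at 1103 and 1322 CPM in KO libraries, against 662, 1024 and 639 CPM in Ctrl libraries. The groups did not overlap, with Ctrl replicate 2 close below KO replicate 2. This amounted to a log2 fold change of 0.64 (SE 0.217; edgeR adjusted p = 0.229; DESeq2 adjusted p = 0.0670).

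**Figure D2:**
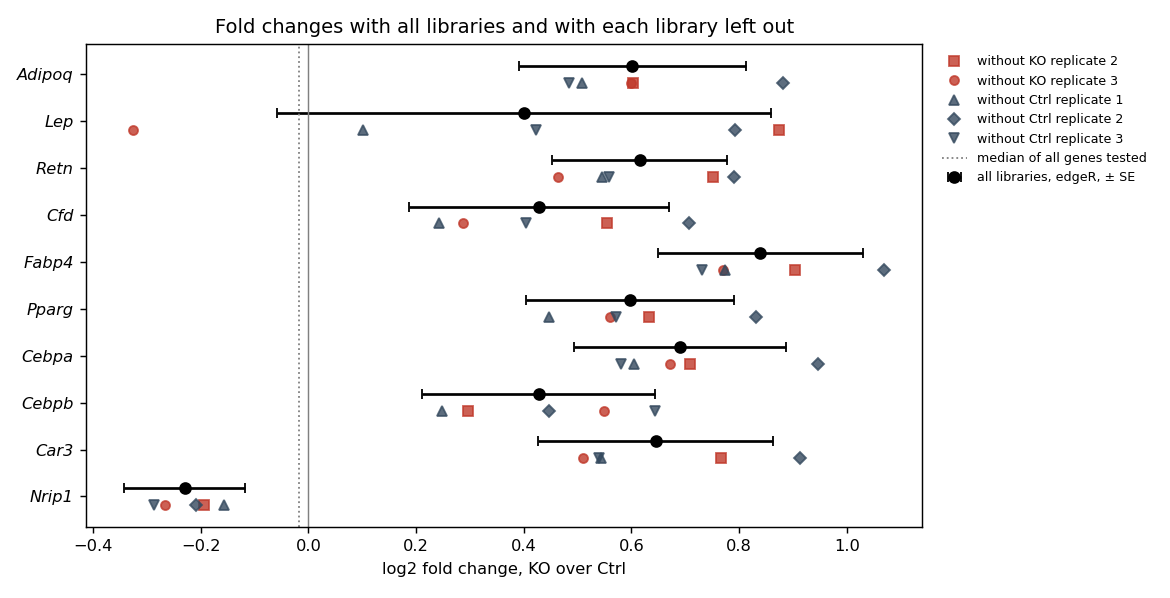
log2 fold change, KO over Ctrl, of each gene with all libraries (black points, bars are ± SE) and with each library left out in turn (coloured symbols). The sign of Lep turned to -0.33 without KO replicate 3, while the other 9 genes kept theirs, and the value of Adipoq ran from 0.48 without Ctrl replicate 3 to 0.88 without Ctrl replicate 2.

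The promoters of the genes whose levels ran together, and of those that did not, were compared for sites of the C/EBP and PPAR factors in the set. RefSeq promoter windows on GRCm38.p6, from 250 bases before to 50 after a start, were found for 8 of the 10 genes, with 11 starts. Fabp4 and Car3 are named only. The C/EBP palindrome TTGCGCAA occurred in 1 of the 11 windows, that of Lep, and in 0.183% of all 32851 windows. The looser form TTGCNNAA, searched on both strands and including the palindrome, occurred in 2 of the 11, those of Lep and of the most downstream start of Pparg, and in 10.8% of all windows. The nuclear receptor half-site AGGTCA, on either strand, occurred in 2 of the 11, both upstream starts of Pparg, and in 16.3% of all. Its direct repeat with any base between the copies, the form that PPAR and RXR bind, occurred in 0 of the 11 and in 0.0396% of all. The CArG box, the sequence that serum response factor binds, occurred in 0 of the 11 and in 1.63% of all. The windows of Lep (chr6:29059971-29060270, plus strand), of the downstream start of Pparg (chr6:115421816-115422115, plus strand), of Cebpa (chr7:35119043-35119342, plus strand) and of Adipoq (chr16:23146286-23146585, plus strand) are given here 5′ to 3′, with matches to TTGCNNAA in capitals. They set the 2 windows with a match beside those of the gene most even in KO and of its nearest companion in the set, which have none.
Lep: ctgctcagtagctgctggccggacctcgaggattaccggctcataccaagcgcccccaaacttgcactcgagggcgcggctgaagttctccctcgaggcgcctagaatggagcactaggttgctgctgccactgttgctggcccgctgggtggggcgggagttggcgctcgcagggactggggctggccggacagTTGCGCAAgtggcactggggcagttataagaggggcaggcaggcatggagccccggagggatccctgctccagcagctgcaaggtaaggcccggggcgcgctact
Pparg, downstream start: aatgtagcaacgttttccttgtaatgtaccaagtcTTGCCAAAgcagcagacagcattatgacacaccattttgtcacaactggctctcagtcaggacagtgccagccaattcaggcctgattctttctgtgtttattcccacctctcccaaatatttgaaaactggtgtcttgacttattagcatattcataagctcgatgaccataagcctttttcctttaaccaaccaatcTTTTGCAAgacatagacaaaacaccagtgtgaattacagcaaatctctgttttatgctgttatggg
Cebpa: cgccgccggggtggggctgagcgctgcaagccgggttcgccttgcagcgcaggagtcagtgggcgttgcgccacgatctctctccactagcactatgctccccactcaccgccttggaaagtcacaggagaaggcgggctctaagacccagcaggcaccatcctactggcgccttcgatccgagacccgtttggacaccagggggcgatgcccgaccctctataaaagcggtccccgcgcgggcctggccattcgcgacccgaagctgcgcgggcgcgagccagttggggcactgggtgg
Adipoq: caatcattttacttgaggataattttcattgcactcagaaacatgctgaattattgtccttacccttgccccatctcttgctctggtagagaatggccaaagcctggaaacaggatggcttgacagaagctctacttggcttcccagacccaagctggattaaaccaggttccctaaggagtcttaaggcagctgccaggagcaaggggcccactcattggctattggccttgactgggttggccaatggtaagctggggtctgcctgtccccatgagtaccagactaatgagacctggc
In Lep the match begins at position -55 relative to the start. In Pparg the matches begin at positions -215 and -16 relative to it. A match in these letters is a description and not a bound site. Groups overlapped for Lep, which has the palindrome, and for Cfd and Cebpb, which have no match to TTGCNNAA. KO lay above Ctrl without overlap for Pparg, which has matches at its downstream start, and for Adipoq, Cebpa and Retn, which have none. Nrip1, which has none either, went the other way, with KO below Ctrl in CPM and overlapping groups in TPM. Counts are summed over all starts of Pparg, so its forms were not measured apart.

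Levels of different genes were compared per length, as TPM, which scales for transcript length and library size, computed from the deposited counts and the exon bases of GENCODE release M21. By mean TPM over the 5 libraries the order was Cfd, Car3, Fabp4, Adipoq, Cebpa, Retn, Pparg, Cebpb, Nrip1 and Lep. Cfd averaged 2590 ± 414 TPM in KO (SD, n = 2) and 1947 ± 607 TPM in Ctrl (SD, n = 3), and Lep 8.55 ± 4.97 TPM in KO and 6.50 ± 2.94 TPM in Ctrl. Adipoq averaged 463 ± 14.2 TPM in KO and 311 ± 96.6 TPM in Ctrl. Pparg, Cebpb and Nrip1, with all-library means of 47.0, 46.8 and 43.3 TPM, stood in another order in each group. In KO, Pparg (58.6 ± 3.78 TPM) and Cebpb (55.1 ± 5.24 TPM) lay within their spread of each other and above Nrip1 (38.7 ± 2.48 TPM). In Ctrl, Nrip1 (46.3 ± 7.56 TPM), Cebpb (41.3 ± 8.40 TPM) and Pparg (39.3 ± 10.2 TPM) did not differ beyond their spread. The annotation gives Fabp4 4489 exon bases, since 1 of its transcripts runs unspliced over the locus, while its principal transcript has 896. With principal transcript lengths, a choice made after seeing the data, Fabp4 came first, at 3518 ± 292 TPM in KO and 1965 ± 504 TPM in Ctrl, and Cebpb and Nrip1 changed places.

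Within each library the genes were then set against Adipoq, as the ratio of a gene's count to that of Adipoq, which does not depend on how libraries are scaled. Retn stood at 0.239 and 0.291 of Adipoq in KO libraries, against 0.273, 0.238 and 0.292 in Ctrl libraries, so its groups overlapped. Pparg, Car3, Cfd, Lep and Cebpb overlapped as well. Cebpa kept the narrowest ratio, at 0.628 and 0.643 in KO libraries, against 0.606, 0.586 and 0.607 in Ctrl libraries. Although the range over the 5 libraries was 0.13 on the log2 scale, both KO libraries lay above all Ctrl libraries.

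Fabp4 stood at 6.23 and 6.81 times Adipoq in KO libraries, against 5.79, 5.30 and 5.65 times in Ctrl libraries, again without overlap. Nrip1 stood at 0.677 and 0.710 of Adipoq in KO libraries, against 1.57, 0.932 and 1.38 in Ctrl libraries. In all, 2 of 9 ratios lay above in both KO libraries, against 1.29% of all genes, and 1 lay below, against 58%, so a lower ratio is common in this table. These ratios share Adipoq as their denominator and were not tested. Widest was the ratio of Lep, which spanned 1.25 on the log2 scale.

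**Figure D3:**
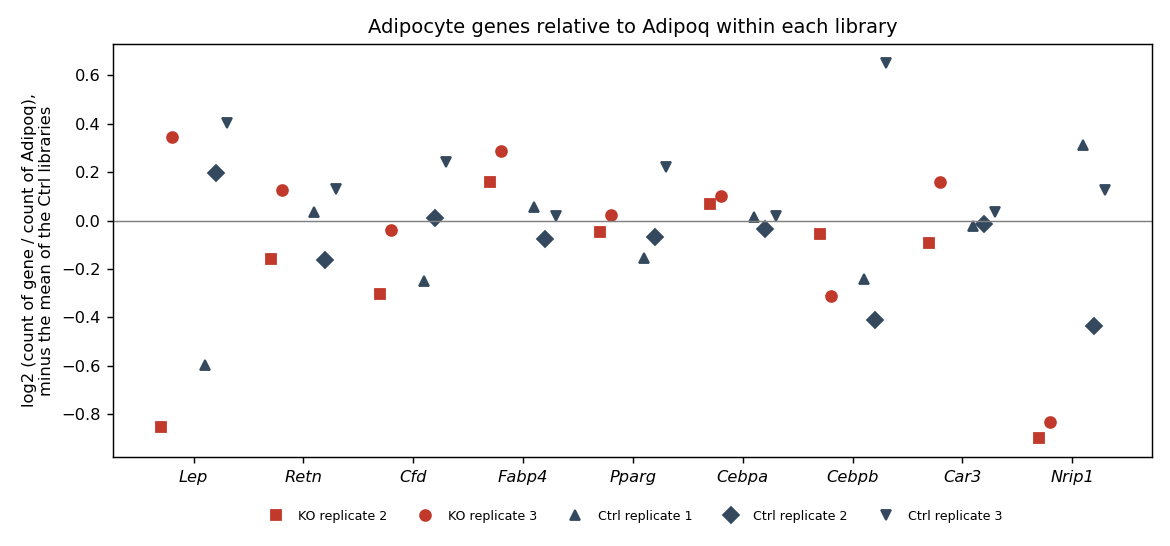
Ratio of each gene's count to the count of Adipoq in the same library (log2), less the mean of the Ctrl libraries, with 1 symbol per library. Retn, Fabp4, Pparg, Cebpa and Car3 stay within 0.38 over the libraries. Fabp4 and Cebpa lie above Ctrl in both KO libraries, and Nrip1 lies below Ctrl in both.

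Among the 9661 other genes with a mean of at least 10 CPM, likeness to Adipoq was measured as the root mean square difference of log2 CPM, centred over the 5 libraries. The nearest was Gpam, which encodes the enzyme of the first step of triglyceride synthesis, at 0.034. Cebpa came second, at 0.046, followed by Crls1, which encodes cardiolipin synthase (0.046), Etfb, a subunit of the electron transfer flavoprotein (0.047), and Uqcr10, a subunit of respiratory complex III (0.051). Gpam stood at 247 and 254 CPM in KO libraries, against 142, 209 and 127 CPM in Ctrl libraries. Of the other 9 adipocyte genes, Car3 ranked 28, Fabp4 127, Pparg 135, Retn 148 and Cfd 379, while Cebpb ranked 2514 and Nrip1 7325. Lep lay below 10 CPM and was not ranked; its difference was 0.51. With 5 libraries this is a description of these aortae.

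Other genes of the fat cell were taken from lists by role. Over all genes tested, 9.04% were higher and 6.75% lower at an unadjusted edgeR p under 0.05. DESeq2 called 3.33% of its genes higher and 2.61% lower. These shares stand beside each list of fat cell genes that follows. Of 21 genes tested that Pparg and Cebpa turn on in mature adipocytes, 20 had a positive log2 fold change, with a median of 0.75. edgeR called 0 of them (20 had an unadjusted p under 0.05, all higher), and DESeq2 called 18 higher. Thrsp, a lipogenic nuclear protein, stood at 405 and 567 CPM in KO libraries, against 229, 252 and 175 CPM in Ctrl libraries (log2 fold change 1.15, SE 0.194; edgeR adjusted p = 0.104). Fabp5, a relative of Fabp4, gave 0.98 (SE 0.152; edgeR adjusted p = 0.104), from 20.4 and 23.1 CPM in KO libraries and 12.1, 11.8 and 8.99 CPM in Ctrl libraries. Scd1, the stearoyl-CoA desaturase and the most abundant of the list, gave 0.85 (SE 0.263; edgeR adjusted p = 0.202), with 7994 and 7180 CPM in KO libraries, against 5262, 4628 and 2704 CPM in Ctrl libraries. Plin4, a lipid droplet coat protein, was the exception, with 924 and 746 CPM in KO libraries and 910, 836 and 1279 CPM in Ctrl libraries (log2 fold change -0.27, SE 0.202; edgeR adjusted p = 0.572).

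Of the 13 other adipocyte-secreted proteins tested, 12 had a positive log2 fold change, with a median of 0.60. edgeR called 0 (5 had an unadjusted p under 0.05, all higher) and DESeq2 called 3 higher. The median was 0.37 without KO replicate 2. Lpl, the lipoprotein lipase, stood at 959 and 1107 CPM in KO libraries, against 474, 773 and 463 CPM in Ctrl libraries (log2 fold change 0.86, SE 0.230; edgeR adjusted p = 0.160). Nrg4, a growth factor secreted by brown fat, had 64.6 and 60.6 CPM in KO libraries, against 31.2, 44.3 and 28.0 CPM in Ctrl libraries, and gave 0.86 (SE 0.187; edgeR adjusted p = 0.116).

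Receptors and adaptors of the adipokines had no common direction: of 11, 3 had a positive and 8 a negative log2 fold change, with a median of -0.08. edgeR called 0 (1 higher and 3 lower had an unadjusted p under 0.05), and DESeq2 called 1 higher and 1 lower. The median was -0.18 without Ctrl replicate 3 and -0.13 without KO replicate 2. The higher one was Adipor2, an adiponectin receptor, at 271 and 304 CPM in KO libraries, against 190, 232 and 159 CPM in Ctrl libraries (log2 fold change 0.57, SE 0.162; edgeR adjusted p = 0.176). The lower one was Cap1, an actin-binding protein that has also been described as a resistin receptor in humans, at 227 and 242 CPM in KO libraries, against 320, 357 and 320 CPM in Ctrl libraries (log2 fold change -0.51, SE 0.101; edgeR adjusted p = 0.114). Insr, the insulin receptor, gave -0.07 (SE 0.0954; edgeR adjusted p = 0.770).

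The 23 other adipogenic transcription factors and coregulators had a median log2 fold change of 0.06, 14 of them positive. edgeR called 0 (7 had an unadjusted p under 0.05, all higher) and DESeq2 called 3 higher, against 9.04% and 3.33% of all genes. Ppargc1b, a coactivator of oxidative genes, had 42.0 and 31.1 CPM in KO libraries, against 21.6, 27.0 and 19.8 CPM in Ctrl libraries (log2 fold change 0.68, SE 0.175; edgeR adjusted p = 0.150). Esrra, a nuclear receptor that works with such coactivators, gave 0.39 (SE 0.0935; edgeR adjusted p = 0.135). The abundant corepressor Ncor1 gave -0.07 (SE 0.0876; edgeR adjusted p = 0.755) and Klf9 -0.25 (SE 0.151; edgeR adjusted p = 0.473).

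Preadipocyte markers and inhibitors of adipogenesis had a median of 0.16 over 13 tested genes. edgeR called 0 and DESeq2 called 0. At an unadjusted edgeR p under 0.05 stood 1, which was higher, a share near the 9.04% of all genes. Without KO replicate 2 the median was 0.0029. Pdgfra, a receptor of fibroblasts and fat progenitors, gave 0.38 (SE 0.184; edgeR adjusted p = 0.381), with 180 and 211 CPM in KO libraries and 187, 143 and 121 CPM in Ctrl libraries, which overlap. Pdgfrb gave 0.18 (SE 0.181; edgeR adjusted p = 0.680) and Ly6a 0.39 (SE 0.134; edgeR adjusted p = 0.234).

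Brown and white fat were followed by separate lists. The 11 tested brown adipocyte markers had a median log2 fold change of 1.00, 9 of them positive, and the 5 tested genes enriched in white fat had a median of -0.0040, 2 of them positive. edgeR called 0 in either list; 9 brown markers had an unadjusted p under 0.05 and were higher, 1 was lower, and 0 white genes had one. DESeq2 called 5 brown markers higher and 1 lower, and 0 white genes. Over fits that each left out 1 library, the brown median ran from 0.79 to 1.25 and the white median from -0.27 without Ctrl replicate 3 to 0.31 without Ctrl replicate 2, so the sign of the white median is not settled. The difference between the lists was not tested. The white genes were low, with a sum of 23.7 and 28.8 CPM in KO libraries, against 27.1, 26.5 and 17.7 CPM in Ctrl libraries. Brown markers summed to 1383 and 1302 CPM in KO libraries, against 637, 1023 and 557 CPM in Ctrl libraries. Ucp1, the uncoupling protein that makes heat in brown fat, had 582 and 569 CPM in KO libraries, against 152, 337 and 87.5 CPM in Ctrl libraries (log2 fold change 1.58, SE 0.478; edgeR adjusted p = 0.194). Cox7a1, a respiratory chain subunit of brown fat and muscle, had 43.4 and 40.7 CPM in KO libraries, against 13.2, 24.1 and 12.1 CPM in Ctrl libraries (log2 fold change 1.35, SE 0.278; edgeR adjusted p = 0.115). For Elovl3, a fatty acid elongase, the log2 fold change was 2.31 (SE 0.478; edgeR adjusted p = 0.115). Its levels were low, at 16.6 and 14.5 CPM in KO libraries, against 3.84, 4.45 and 0.955 CPM in Ctrl libraries. Ctrl replicate 3 held 24 counts of it.

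Prdm16, a regulator of brown fat identity that other cell types also express, was the lower one, at 150 and 187 CPM in KO libraries, against 232, 245 and 235 CPM in Ctrl libraries (log2 fold change -0.50, SE 0.119; edgeR adjusted p = 0.135). Among the white genes, Slc7a10 gave 0.25 (edgeR adjusted p = 0.603), Hoxc8 0.24 (SE 0.217; edgeR adjusted p = 0.647) and Hoxc9 -0.24 (SE 0.218; edgeR adjusted p = 0.646).

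Of the cytosolic relatives of Car3 and of the other fatty acid binding proteins, 4 of 10 were tested, all with a positive log2 fold change and a median of 0.63. edgeR called 0 (2 had an unadjusted p under 0.05) and DESeq2 called 1, Fabp3. Fabp3, the fatty acid carrier of muscle and brown fat, stood at 28.6 and 33.3 CPM in KO libraries, against 10.5, 15.3 and 6.68 CPM in Ctrl libraries (log2 fold change 1.50, SE 0.293; edgeR adjusted p = 0.109). Its value is uncertain, since 21.7% of its 100-base words also occur elsewhere in the annotated transcripts. Car13 gave 0.81 (SE 0.266; edgeR adjusted p = 0.219). The 6 untested genes held at most 7 counts in any library.

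**Figure D4:**
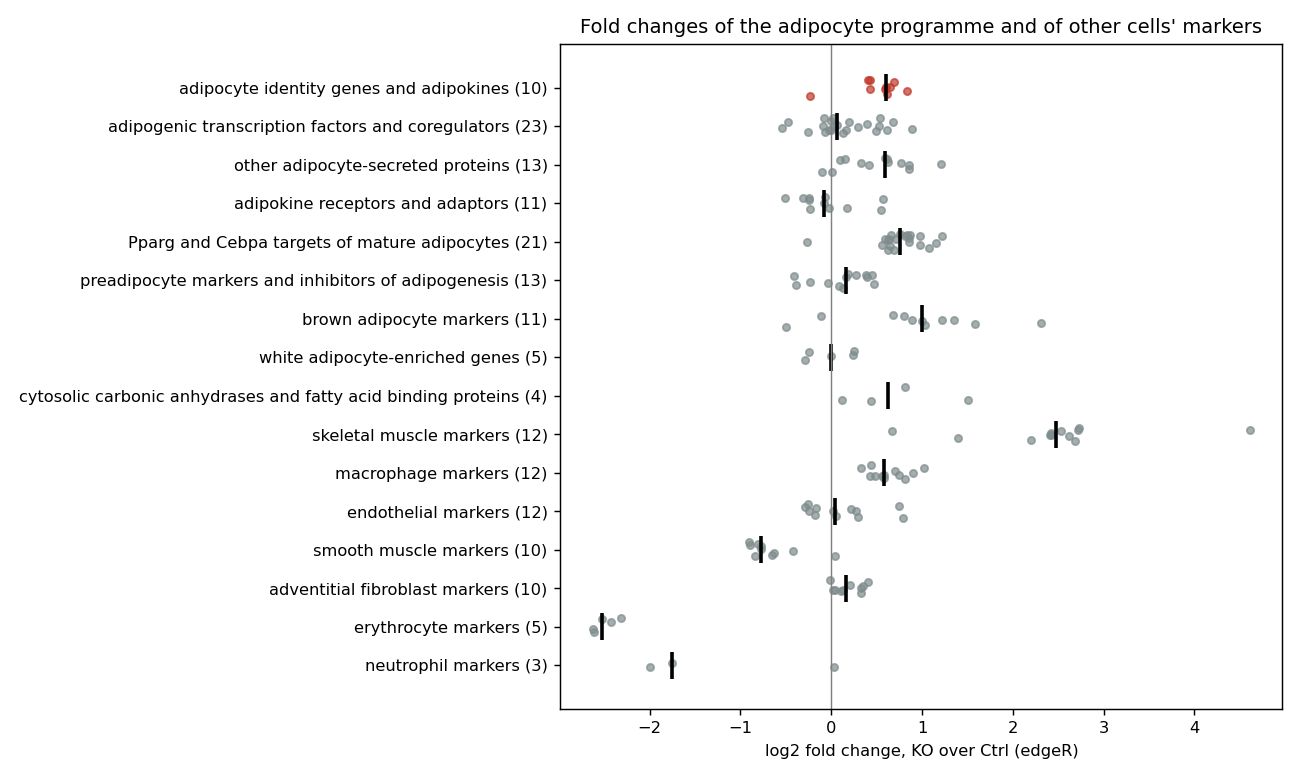
log2 fold change, KO over Ctrl, of every tested gene of the 10 adipocyte genes (red) and of 15 other lists (grey), with the number tested in brackets and a black bar at the list's median. The adipocyte genes (median 0.60), mature adipocyte genes (0.75) and brown adipocyte markers (1.00) lie mostly above 0, and the white-enriched genes lie around 0. All skeletal muscle (2.47) and macrophage markers (0.58) lie above 0. Smooth muscle markers (-0.78) lie mostly below 0, and all erythrocyte markers (-2.53) lie below it.

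Markers of other cells also stood at different levels in KO and Ctrl aortae. The 10 smooth muscle markers summed to 16786 and 16518 CPM in KO libraries, against 28932, 29402 and 27619 CPM in Ctrl libraries. Skeletal muscle markers summed to 898 and 2458 CPM in KO libraries, against 649, 298 and 10.4 CPM in Ctrl libraries; all 12 had a positive log2 fold change, and Myh4 and Pvalb were at 0 counts in Ctrl replicate 3. Macrophage markers summed to 482 and 631 CPM in KO libraries, against 348, 301 and 417 CPM in Ctrl libraries, and all 12 had a positive log2 fold change. Their median of 0.58 was 0.38 without KO replicate 3. DESeq2 called 9 of the 10 smooth muscle markers lower, 0 of the 12 skeletal muscle markers and 5 of the 12 macrophage markers higher. Over all genes it called 2.61% lower and 3.33% higher. At an unadjusted edgeR p under 0.05 stood 9 smooth muscle markers, all lower, and 7 skeletal muscle and 9 macrophage markers, all higher. The shares of all genes were 6.75% lower and 9.04% higher.

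Endothelial markers summed to 1271 and 513 CPM in KO libraries, against 897, 1134 and 861 CPM in Ctrl libraries. They were thus highest in KO replicate 2 and lowest in KO replicate 3. Fabp4 stood at 1126 CPM in KO replicate 2 and 1238 CPM in KO replicate 3, both above all Ctrl libraries. Of the 12 endothelial markers, 7 had a positive and 5 a negative log2 fold change, with a median of 0.04. This median ran from -0.38 without KO replicate 2 to 0.49 without KO replicate 3. Among them Gpihbp1, which carries lipoprotein lipase across capillary endothelium, stood at 17.6 and 14.3 CPM in KO libraries, against 8.18, 10.8 and 9.39 CPM in Ctrl libraries (log2 fold change 0.75, SE 0.160; edgeR adjusted p = 0.116), and DESeq2 called it higher (adjusted p = 0.00698). Kdr, a VEGF receptor, stood at 60.1 and 59.9 CPM in KO libraries, against 30.3, 52.8 and 20.5 CPM in Ctrl libraries (log2 fold change 0.79, SE 0.338; edgeR adjusted p = 0.320; DESeq2 adjusted p = 0.515). Gpihbp1 and Kdr had the lowest p of the list. Vwf and Pecam1, its 2 most abundant markers, had negative log2 fold changes and overlapped between the groups. These were -0.25 (SE 0.545, edgeR adjusted p = 0.867) and -0.29 (SE 0.392, edgeR adjusted p = 0.773). Car3 had 1103 and 1322 CPM in KO libraries, where the skeletal muscle markers summed to 898 and 2458 CPM. In Ctrl libraries it had 662, 1024 and 639 CPM, where they summed to 649, 298 and 10.4 CPM. Adventitial fibroblast markers summed to 12326 and 12705 CPM in KO libraries, against 13373, 12934 and 9299 CPM in Ctrl libraries. Erythrocyte markers summed to 23.9 and 28.9 CPM in KO libraries, against 37.9, 297 and 87.6 CPM in Ctrl libraries, and neutrophil markers to 3.25 and 2.21 CPM in KO libraries, against 1.48, 1.30 and 10.7 CPM in Ctrl libraries. At an unadjusted p under 0.05, edgeR gave 1 endothelial and 1 fibroblast marker higher, 5 of 5 erythrocyte markers lower and 0 of 3 tested neutrophil markers. DESeq2 called 1 endothelial marker higher, and 0 fibroblast, 0 erythrocyte and 0 neutrophil markers. No macrophage, endothelial, fibroblast or smooth muscle marker was at 0 in any library. The part of these cells in the adipocyte results was not tested, and genotype and the tissue make-up of these 5 aortae cannot be told apart.

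Between libraries of the same group the fat signal varied too. The 10 adipocyte genes summed to 3379 and 3861 CPM in KO libraries, against 2020, 3043 and 2026 CPM in Ctrl libraries. Ctrl replicate 2 was the highest Ctrl library in 8 of the 10, all but Cebpb and Nrip1, and it had 1023 CPM of brown adipocyte markers, against 637 CPM in Ctrl replicate 1 and 557 CPM in Ctrl replicate 3. KO replicate 3 was the highest of all 5 libraries in 8 of the 10.

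**Figure D5:**
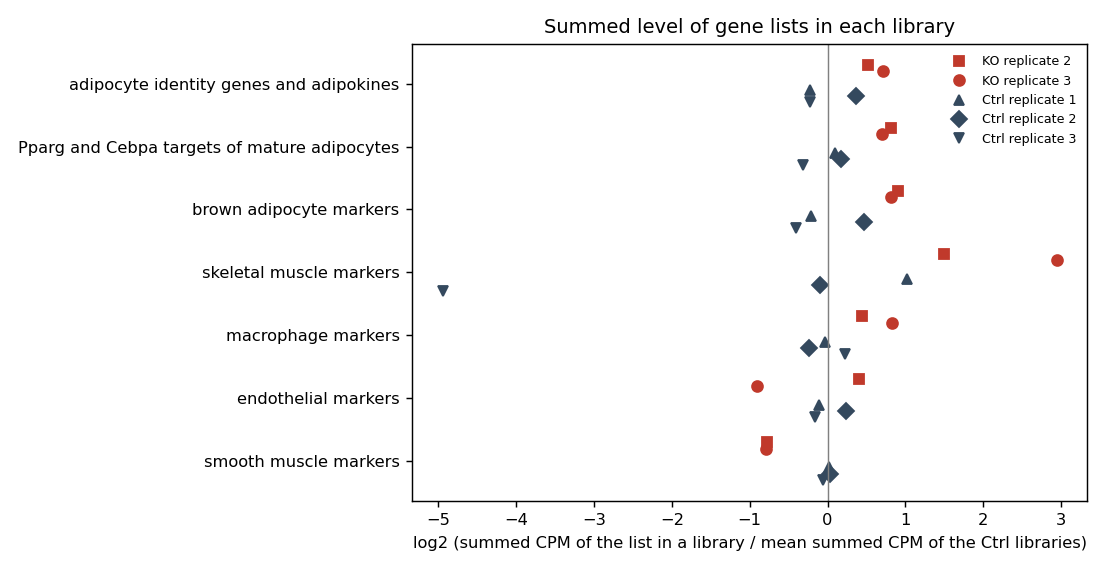
Summed CPM of 7 gene lists in each library, as log2 of its ratio to the mean of the Ctrl libraries, with 1 symbol per library. The adipocyte genes, mature adipocyte genes and brown markers lie above every Ctrl library in both KO libraries. So do the skeletal muscle and macrophage markers, while the smooth muscle markers lie below every Ctrl library. The skeletal muscle markers of Ctrl replicate 3 lie far below the others, and the endothelial markers of KO replicate 3 lie lowest.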

How the data were processed

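RNA of single aortae was sequenced after a stranded poly(A) library kit, per the labels' protocols. The authors deposited raw counts per gene, whole numbers for 55453 gene symbols in 5 libraries, with columns named as the labels name the samples. The submitters' processing notes name build GRCm38 and the tools STAR 2.7.0f, featureCounts from Subread 1.6.4 and fastp 0.20.0. Which annotation release and strand setting they used is not given.

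From these counts, genes passing edgeR's filterByExpr (minimum count 10) were scaled by TMM and entered into quasi-likelihood fits of edgeR 4.0.16 under R 4.3.3, with group as the sole term and KO over Ctrl as the contrast, with 3 residual and 4.01 prior degrees of freedom and a biological coefficient of variation of 15.8%. The fit was tested on simulated data. The alternatives were DESeq2 1.42.0, limma-voom (limma 3.58.1), other size factors, no filter or a minimum count of 50, a replicate block, and omission of mitochondrially encoded genes, of skeletal muscle markers and of each library in turn. DESeq2 ran on all genes with its own filter. The 10 genes, the lists and the rules were chosen with earlier results of these data known. The genes named are the 10, from each list the 2 most abundant and the 2 of lowest p, the 5 nearest to Adipoq, and Srf. Of these, not all genes of the non-fat marker lists are named. A gene that this rule names among the secreted proteins is not reported here. Lengths came from GENCODE M21, where 54471 symbols matched a single gene. Replicate libraries all differed by more than sampling noise. Counting intervals cover counting error only, since reads were not marked by molecule.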

Additional observations from a re-analysis of the deposited data

How the results depend on the processing

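Of 150 log2 fold changes of the 10 genes under 15 alternatives each, 137 kept their direction and their side of the threshold, 12 came to pass it and 1 reversed, Lep, which ran from -0.33 without KO replicate 3 to 0.87 without KO replicate 2. The median of the 10 stayed between 0.48 and 0.81. DESeq2 called 524 genes higher and 411 lower, 3 of the 10 among them, and leaving out the low-count filter gave 982 and 432 in edgeR, 6 of the 10 among them (Adipoq, Retn, Fabp4, Pparg, Cebpa and Car3). limma-voom called 1 gene lower. The cause of these differences between tests was not tested. With each library left out in turn, edgeR called 0 to 139 genes higher and 0 to 9 lower, 139 and 9 without Ctrl replicate 2, and 0 to 3 of the 10. Genes at an unadjusted p under 0.05 then ranged from 1545 to 2904 and members from 2 to 8, the lowest of both without KO replicate 3, a fit in which the spread of the lone KO library is taken from the Ctrl libraries. The neutrophil median ran from -3.17 without KO replicate 2 to 0.75 without Ctrl replicate 3, where 1 of its 3 genes was still tested. The replicate block gave 3 genes higher and 2 lower and 0 of the 10. The labels do not say that replicate numbers pair the mice, and deviations of same-numbered libraries correlated at -0.0099 and -0.19. With the numbers crossed, a choice made after seeing the data like the newer quasi-likelihood fit, edgeR called 0 of the 10 and 0 genes. No test of the 10 as a set was made. Counting error among the 10 was largest for Lep, 9.62% at its lowest count, which is below the spread between its libraries.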
